A study of Mus musculus with 26 samples.

Results

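Kcne1 and Gja1 are 2 genes of the heart's electrical system that have been reported to depend on the cardiac transcription factor Nkx2.5. Every probe set that the platform annotation assigns to either gene was taken, which gave 1 probe set each, X60457_s_at for Kcne1 and x61576_s_at for Gja1. They represent 2 of the 6137 genes that carry a probe set with a single symbol on the A and B oligonucleotide arrays, and both lie on the B array, with 0 probe sets on the A array. Both probe sets had a value in all 13 hearts, and in all 13 that value lay above the floor of 1373 intensity units, set at 2 times the noise of the B array.

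Kcne1 encodes minK, a small membrane protein with a single transmembrane pass that assembles with the pore-forming subunit Kcnq1 into the slow delayed rectifier potassium channel, which helps to repolarise cardiomyocytes. In the mouse heart a reporter inserted into Kcne1 marks the developing and adult conduction system. Gja1 encodes connexin 43, the main gap junction protein of the working ventricular myocardium, whose hexamers dock between neighbouring cells at the intercalated disc and carry current from cell to cell, and which is scarce in the proximal conduction system.

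The hearts came from mouse embryos at embryonic day 12.5 of a line in which the NK2-specific domain, a conserved stretch of the Nkx2.5 protein outside its homeodomain, was deleted. Entire hearts were taken, and the total RNA of each was measured on 1 A and 1 B array. Hearts 1, 2, 7, 9 and N1 were wild-type (n = 5). Hearts 5, 6, 12 and N2 carried 1 deleted allele (heterozygous, n = 4), and hearts 3, 4, 8 and N3 were labelled null (n = 4). No treatment is named for any of them. The labels give each heart a plain number or a number with the prefix N. The hearts were grouped here into 3 series, 1 to 6, 7 to 12 and N, each of which holds all 3 genotypes. The cut between 6 and 7 is not in the labels and was chosen with earlier results of these data known. Whether the series mark batches is not stated. The labels give no strain, sex, litter or collection date, so each p-value below reflects the spread among these hearts and nothing wider. The annotation assigns 0 probe sets to Nkx2-5, so the level of the targeted gene was not analysed here.

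The deposited values were signal intensities on a linear scale that the authors had already scaled between arrays. On the B arrays 30.7% to 35.8% of the probe sets without blank cells exceeded the floor in a given heart. The B arrays of null heart 3 and wild-type hearts 9 and N1 held mostly blank cells (71.4% to 80.6%), although not for Kcne1 and Gja1. The heart's own markers were present: 10 of 16 cardiomyocyte marker genes were on the arrays, and all 10 exceeded the floor in at least 50% of the hearts with a value. The liver and the lung, foregut and epithelial marker lists had 0 such genes. Among other cell types, 3 of 4 skeletal muscle genes (Ckm, Myog and Tnni2), 2 of 4 leukocyte genes (Lyz2 and Ptprc) and 1 of 3 neuronal and glial genes on the arrays (Ncam1) exceeded the floor in at least 50% of the hearts with a value.

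The promoter of Gja1 is given from RefSeq (GRCm38.p6); 1 of the 2 genes matched its table, and Kcne1 is not shown. The sequence is included because the study concerns a DNA-binding factor of the NK2 class, whose preferred element can be written TNAAGTG. The stretch of 300 bases, chr10:56377050-56377349 on the plus strand, runs from 250 bases before the start of Gja1 to 50 bases after it, and the capitals mark an AP-1 element, TGAGTCA, the site of Jun and Fos proteins.
Gja1: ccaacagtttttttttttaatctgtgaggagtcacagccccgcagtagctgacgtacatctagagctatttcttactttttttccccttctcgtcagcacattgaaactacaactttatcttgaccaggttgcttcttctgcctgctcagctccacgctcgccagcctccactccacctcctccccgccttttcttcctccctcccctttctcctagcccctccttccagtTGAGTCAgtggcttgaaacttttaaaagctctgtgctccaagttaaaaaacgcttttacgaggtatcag
The AP-1 element begins at position -19 relative to the start. TNAAGTG was found 0 times on either strand of this window. Of 32851 promoters of the same length, 11.5% held TNAAGTG and 5.20% held TGAGTCA. These matches describe letters in the reference sequence only.

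Kcne1 signal was higher in every null heart than in any heart of the other genotypes. The wild-type hearts gave 3343.5 (heart 1), 3116 (heart 2), 2941.5 (heart 7), 2937.7 (heart 9) and 2910.3 (heart N1) intensity units, a mean of 3050 ± 183 (SD, n = 5). The heterozygous hearts gave 2702.7 (heart 5), 3283 (heart 6), 3060 (heart 12) and 2663.1 (heart N2), a mean of 2927 ± 297 (SD, n = 4). The null hearts gave 3904.4 (heart 3), 3850.6 (heart 4), 3850.2 (heart 8) and 4151.4 (heart N3), a mean of 3939 ± 144 (SD, n = 4). The lowest null heart, 8, lay above the highest wild-type heart, 1, and above the highest heterozygous heart, 6, while wild-type and heterozygous hearts overlapped. In order of their means the genotypes ran null, wild type, heterozygous, and the lower 2 did not differ beyond their spread. In an entire heart, fewer cells of a type and less RNA per cell cannot be told apart.

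**Figure D1:**
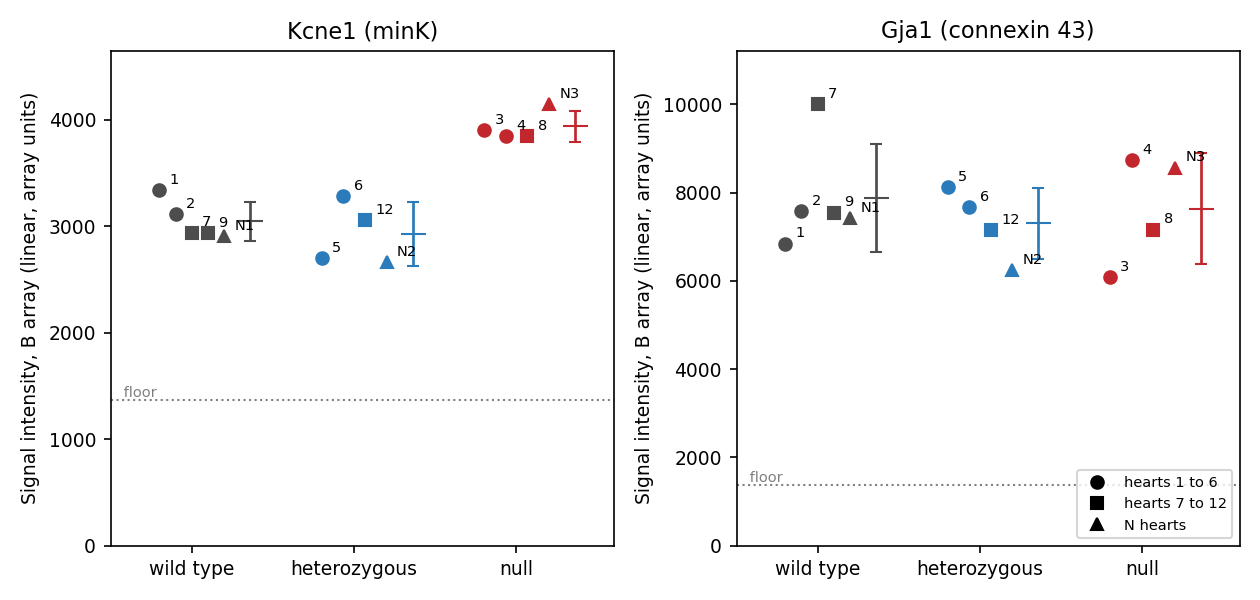
Signal intensity of Kcne1 (left) and Gja1 (right) on the B array, in linear array units from 0, with 1 point per heart labelled by its number; colour gives the genotype, the symbol gives the number series, the cross-bar gives the mean and SD of each genotype, and the dotted line is the floor of 1373. The 4 null hearts sit at 3850.2 and above for Kcne1, over all other hearts, whereas the genotypes overlap for Gja1.

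The difference between null and wild-type hearts in Kcne1 was 0.37 ± 0.15 (log2, SE), or 1.29-fold with a 95% confidence interval of 1.03 to 1.62. This did not pass the test across all probe sets: limma gave an unadjusted p of 0.0268 and a Benjamini-Hochberg adjusted p of 0.9999 over 4494 probe sets. In that comparison 1 of the 4494 probe sets was called, 0.0223%, and it was neither Kcne1 nor Gja1. Kcne1 ranked 47 by p-value, and 108 probe sets had an unadjusted p under 0.05 where 224.7 would be expected by chance. An exact two-sided permutation test on the 9 hearts gave p = 0.00794, the smallest value that 126 arrangements allow; it is 1 of 6 such comparisons and is not adjusted.

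Against heterozygous hearts, null hearts were 0.43 ± 0.16 (log2, SE) higher in Kcne1, or 1.35-fold with an interval of 1.07 to 1.71. The limma p was 0.0157 and the adjusted p 0.774, and 0% of the 4494 probe sets were called. In this comparison 260 probe sets had an unadjusted p under 0.05 in limma, where 224.7 would be expected by chance. The exact permutation p was 0.0286, again the smallest that its 70 arrangements allow. With quantile scaling the difference was 0.22 ± 0.25 (unadjusted p = 0.380 in limma). Heterozygous and wild-type hearts differed by -0.06 ± 0.15 (log2, SE), with an interval of -0.38 to 0.26, an adjusted p of 0.990 in limma and an exact permutation p of 0.437. That comparison also called 0% of the probe sets, with 152 at an unadjusted p under 0.05.

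Complete separation of null from wild-type hearts was no more frequent than chance would give. Were the hearts exchangeable, every null heart would lie highest in a share of 0.00794 of probe sets, given 126 arrangements. That share is above the 0.365% found here. Among the 1097 tested probe sets with a value in all 13 hearts, 4 (0.365%) had every null heart above every wild-type heart, and Kcne1 was among them. The others were Creb3, a membrane-bound transcription factor, Tmsb10, which binds actin monomers, and a probe set without a gene name. In 2 probe sets (0.182%), Kcne1 and Creb3, every null heart also lay above every heterozygous heart. The null hearts lay below all wild-type hearts in 6 probe sets and below all other hearts in 5. The chance share given above holds for null against wild-type hearts only. No chance share was computed for separation from all other hearts, so nothing is said on whether that was rarer or more frequent than chance. Creb3, Tmsb10 and the genes of these lower probe sets were chosen after their values were seen.

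Kcne1 varied little between hearts of the same genotype. The coefficient of variation of its intensity was 6.01% in wild-type, 10.1% in heterozygous and 3.65% in null hearts. On the log2 scale its SD within genotypes was 0.10, and 0 of 427 B probe sets within 0.5 log2 units of its mean level had a smaller one. The 427 include Kcne1 itself, and their median SD was 0.334. The moderated test draws each SD towards the trend over all probe sets, which was 0.359 at this level, so the standard error of 0.15 exceeds the one from these hearts alone. Without moderation, a setting added after the data were seen, the null against wild-type difference had a standard error of 0.067 and an unadjusted p of 0.000254, and its adjusted p of 0.570 still did not pass. Of the 427 probe sets at a similar level, 15 (3.51%) had a larger null minus wild-type difference.

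**Figure D2:**
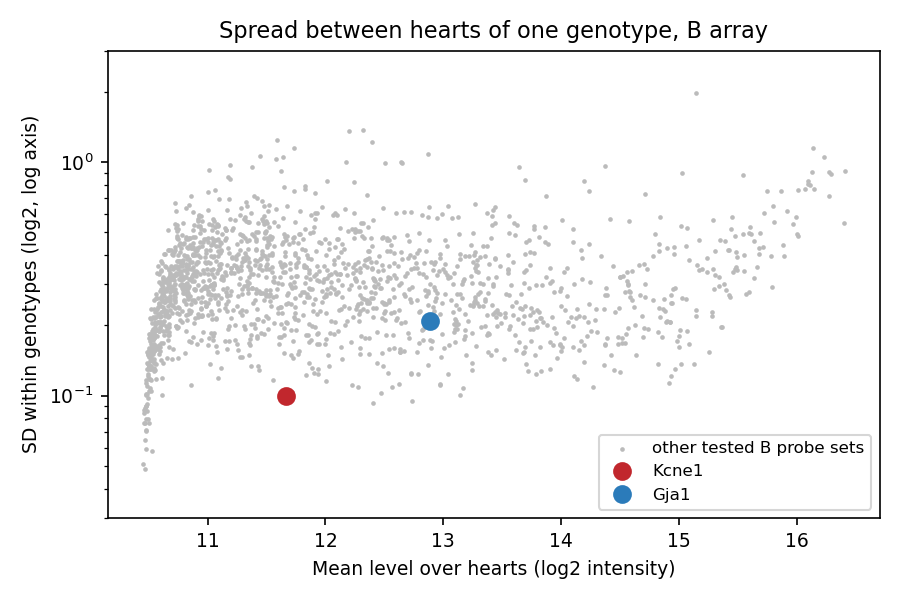
SD between hearts within genotypes (log2, on a log axis) against the mean level over hearts (log2 intensity) for the 1723 tested B probe sets, with 1 grey point each. Kcne1 (red) has an SD of 0.10 at a mean of 11.67, below all probe sets within 0.5 log2 units of it, and Gja1 (blue) has an SD of 0.209 at a mean of 12.88, inside the cloud.

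The Kcne1 difference was present in each series of heart numbers. Null minus wild type was 0.26 (log2) among hearts 1 to 6, with 2 hearts of each genotype. It was 0.39 among hearts 7 to 12, with 2 wild-type hearts and 1 null heart, and 0.51 among the N hearts, with 1 heart each. Null minus heterozygous was 0.38, 0.33 and 0.64 in the same order. Hearts 7 to 12 and N together differed from hearts 1 to 6 in Kcne1 by -0.06 ± 0.12 (log2, SE; limma adjusted p = 0.803), although 7.14% of all tested probe sets were called in that contrast. Kcne1 is therefore not among the 321 probe sets called between the number series, a split chosen with earlier results of these data known.

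Leaving out each heart in turn kept the null minus wild-type difference between 0.35 and 0.40. Without the 6 mostly blank arrays, 3 of them B arrays, it was 0.34 with an unadjusted p of 0.126. The B array ratio of the 3' to the 5' probe sets of Gapdh, a measure of RNA quality, ranged from -0.153 to 0.0611 (log2) in wild-type, from -0.221 to 0.00964 in heterozygous and from -0.0961 to 0.0772 in null hearts. Its part in the result was not tested.

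Cardiomyocyte markers could serve as a second scale. All 10 cardiomyocyte genes on the arrays were detected, but only Actc1, cardiac alpha actin, and Myl3, a myosin light chain, had values in every heart. Their summed intensity ranged from 50662 to 290491 in wild-type, from 54397 to 169948 in heterozygous and from 135537 to 241305 in null hearts, with an exact permutation p of 0.262 for null against wild type. Relative to these 2 markers the sign of the Kcne1 difference turned, to -0.31 ± 0.61 (log2, SE) between null and wild-type and to -0.11 between null and heterozygous hearts. The 2 markers themselves ranged from -1.30 to 0.93 (mean log2 deviation) among the wild-type hearts. Actc1 is also among the genes listed here as reported to depend on Nkx2.5. Its probe set used for scaling was 0.76 ± 0.55 (log2, SE) higher in null than in wild-type hearts (unadjusted p = 0.185 in limma). The part of Actc1 in the turned sign was not tested. Summed erythroid markers, from 3 probe sets of the 8 genes on the arrays, ranged from 16395 to 231683 in wild-type, from 15036 to 64918 in heterozygous and from 45559 to 144190 in null hearts, and their part in the Kcne1 result was not tested.

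**Figure D3:**
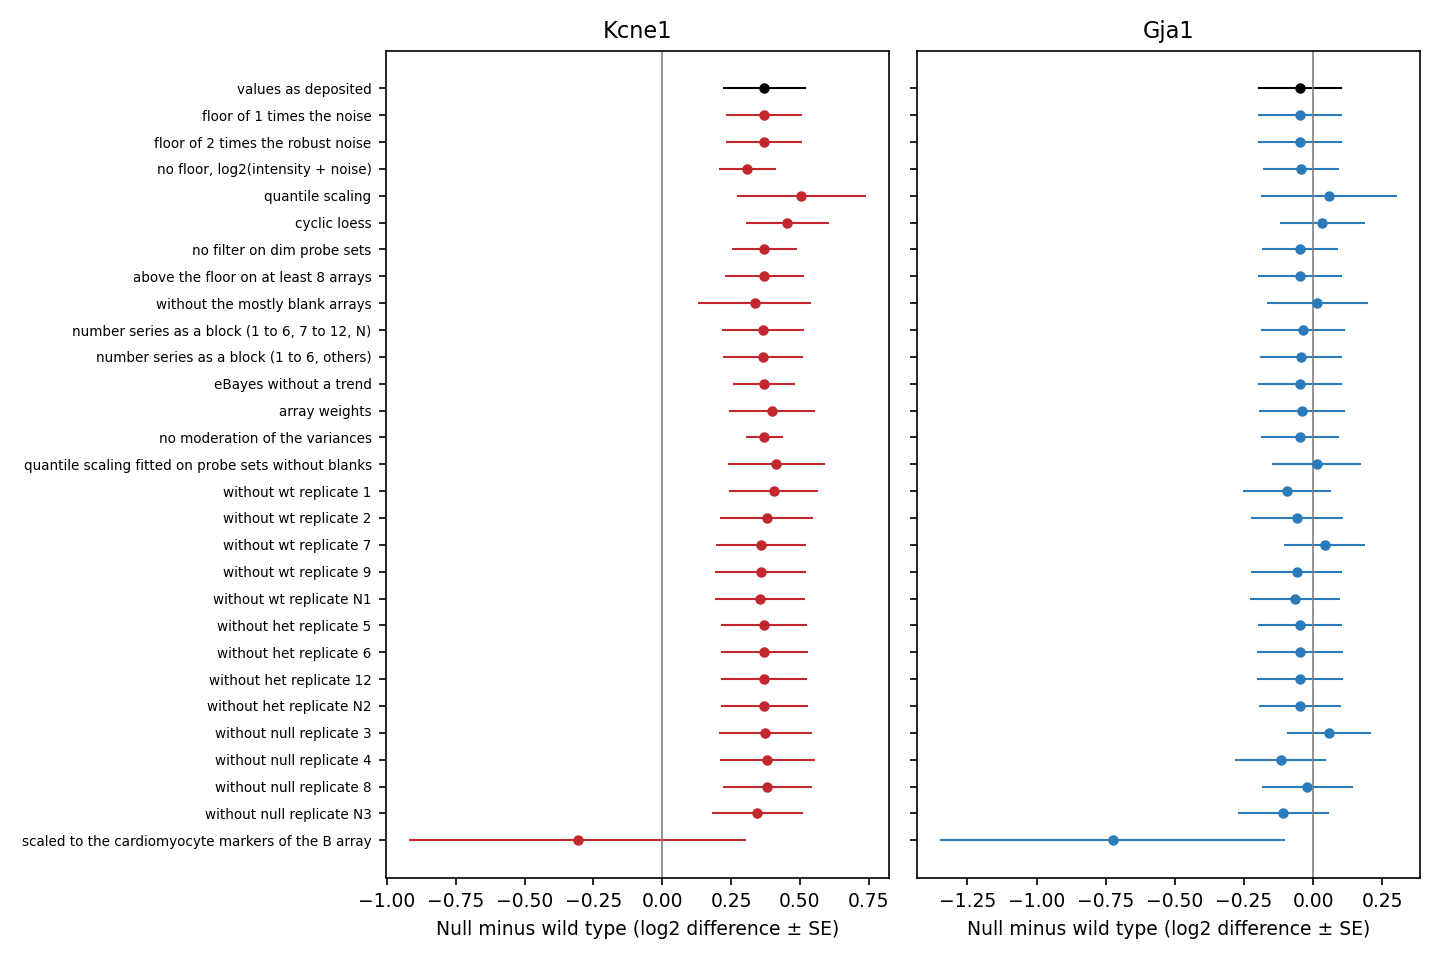
Null minus wild-type difference (log2 ± SE) of Kcne1 (left) and Gja1 (right) for the values as deposited (black) and under each alternative setting (coloured). Kcne1 stays above 0 except when scaled to the 2 cardiomyocyte markers (-0.31), while the Gja1 estimates lie on both sides of 0. Lower floors, other filters, variance settings other than array weights and leaving out heterozygous hearts could not move either estimate.

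Gja1 showed no separation by genotype. Wild-type hearts gave 6848.3 (heart 1), 7575.1 (heart 2), 10015.1 (heart 7), 7550.2 (heart 9) and 7417.1 (heart N1) intensity units, a mean of 7881 ± 1229 (SD, n = 5). Heterozygous hearts gave 8130.9 (heart 5), 7671.9 (heart 6), 7158 (heart 12) and 6246 (heart N2), a mean of 7302 ± 808 (SD, n = 4). Null hearts gave 6083.2 (heart 3), 8745.8 (heart 4), 7165.2 (heart 8) and 8567.4 (heart N3), a mean of 7640 ± 1256 (SD, n = 4). All 3 genotypes overlapped, the highest heart was wild-type heart 7 and the lowest was null heart 3. By their means the genotypes ran wild type, null, heterozygous, and no neighbours in that order differed beyond their spread.

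Null hearts differed from wild-type hearts in Gja1 by -0.05 ± 0.15 (log2, SE), or 0.968-fold with a 95% confidence interval of 0.775 to 1.21. The adjusted p in limma was 0.9999 and the exact permutation p was 0.770. Heterozygous hearts were at 0.930-fold of wild type with an interval of 0.745 to 1.16 (adjusted p = 0.990 in limma, exact permutation p = 0.5). Null against heterozygous hearts gave 1.04-fold with an interval of 0.823 to 1.31 (adjusted p = 0.962 in limma, exact permutation p = 0.686). These intervals hold for the values as deposited and do not show that the genotypes were alike. Relative to Actc1 and Myl3, the null minus wild-type difference in Gja1 was -0.73 ± 0.62 (log2, SE; unadjusted p = 0.245 in limma).

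The sign of the Gja1 difference between null and wild-type hearts depended on single hearts. It became 0.042 (log2) once wild-type heart 7 was omitted and 0.057 once null heart 3 was, and without each of the hearts in turn it lay between -0.12 and 0.06. Among hearts 1 to 6 it was 0.018, among hearts 7 to 12 it was -0.28 and among the N hearts 0.21. The number series differed in Gja1 by 0.03 ± 0.12 (log2, SE, adjusted p = 0.905 in limma). The SD of Gja1 within genotypes was 0.209 (log2), and 63 of 266 probe sets at a similar level had a smaller one. Of the 266, 142 had a larger null minus wild-type difference.

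No relation between the 2 genes across hearts passed a test. Pearson's r of their log2 intensities over the 13 hearts was 0.0237 (permutation p = 0.939) and Spearman's rho was 0.0659 (permutation p = 0.833), and this was the only relation of the kind computed. Without the 2 hearts farthest from the Kcne1 median r was 0.120. It was -0.33 among the 6 hearts numbered 1 to 6 and 0.26 among the 7 others.

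A difference in the opposite direction stood next to Kcne1 on the chromosome. In the RefSeq gene order Rcan1, which encodes an inhibitor of the phosphatase calcineurin, is the gene next to Kcne1, and it was looked up as a neighbour, its pattern being described after its values were seen. Its probe set gave 2821.7, 3516.1, 3563.1, 4592.5 and 5162.6 in wild-type hearts 1, 2, 7, 9 and N1, and 2878.4, 3813.6, 4893.7 and 4486.8 in heterozygous hearts 5, 6, 12 and N2. Null hearts 3, 4, 8 and N3 gave 2280.5, 2574.6, 2397.9 and 2447.4. Every null heart lay below every other heart, so Rcan1 was 1 of the 5 probe sets with that pattern among the 1097 with a value in all hearts. The genotype means were 3931 ± 934 (SD, n = 5), 4018 ± 881 (n = 4) and 2425 ± 122 (n = 4). Null minus wild type was -0.67 ± 0.21 (log2, SE), with an unadjusted p of 0.00626 and an adjusted p of 0.9999 in limma, which did not pass. Hearts 7 to 12 and N lay 0.34 ± 0.15 (log2, SE) above hearts 1 to 6 in Rcan1, with an unadjusted p of 0.0399 and an adjusted p of 0.178 in limma. With the 3 number series as a block the null minus wild-type difference in Rcan1 was -0.64. In 28 of 28 alternative settings the Rcan1 difference stayed negative, between -1.34 and -0.41. Lower floors and other filters could not move it, because Rcan1 exceeded the floor in every heart. Variance settings other than array weights and leaving out heterozygous hearts could not either, because the estimate is a difference of genotype means. With array weights it was -0.75. Without the mostly blank arrays the difference was -0.41, with an unadjusted p of 0.120 in limma.

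Of the 3 genes on either side of Kcne1, Smim11, Rcan1 and Runx1 were on the arrays, and Smim11 and Runx1 were below the floor in every heart with a value. On either side of Gja1, Man1a, Hsf2 and Pkib were on the arrays and were likewise below the floor in every heart with a value. The neighbours therefore give no measure of the surroundings of Gja1.

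**Figure D4:**
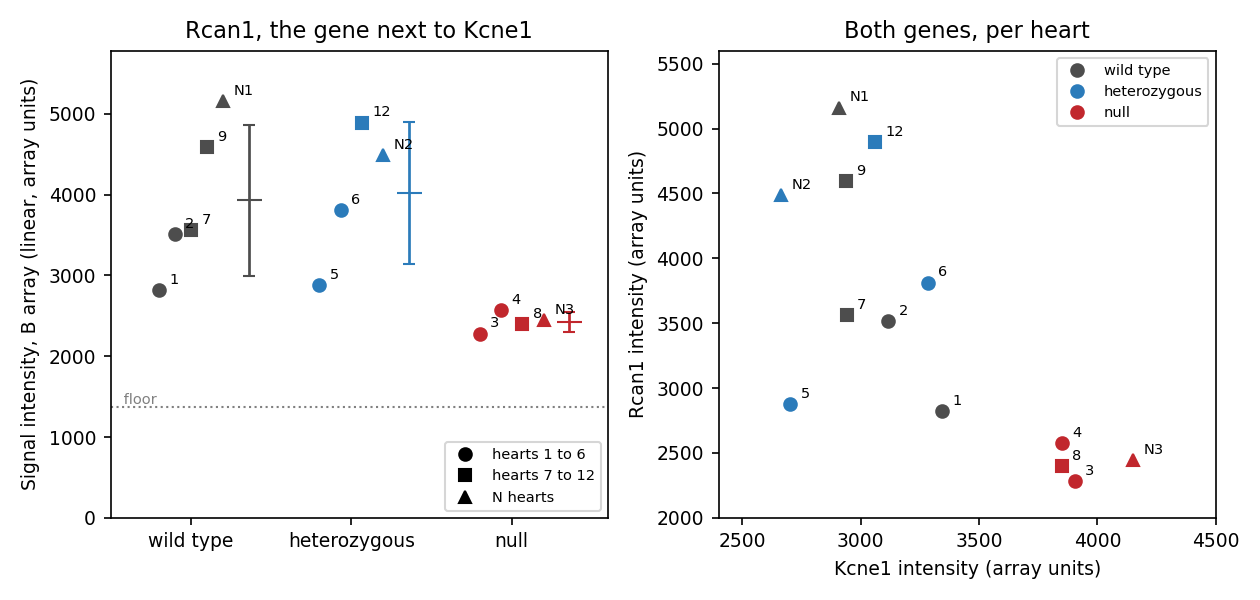
Rcan1 signal intensity on the B array by genotype (left; linear units from 0, points, symbols and bars as for Kcne1) and Rcan1 against Kcne1 intensity for the 13 hearts (right; axes cut to the range of the data). The 4 null hearts have Rcan1 values of 2574.6 or less with Kcne1 values of 3850.2 or more. That no other heart falls in that corner follows from the separation of the null hearts in each gene alone.

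The partners of Kcne1 were mostly too dim to read. Of 40 other potassium channel subunits listed, 25 genes were on the arrays with 28 probe sets, and 24 of these never exceeded the floor. Kcnq1, the pore that minK joins, was below the floor in all 7 hearts with a value, with means of 235 in wild-type (n = 2), 270 in heterozygous (n = 2) and 105 in null hearts (n = 3). The other 3 probe sets with enough signal were tested, and 0 were called. Kcnh2, the pore of the rapid delayed rectifier, differed between null and wild-type hearts by -0.19 ± 0.22 (log2, SE). Kcnj11, a subunit of the ATP-sensitive channel, differed by 0.28 ± 0.18, and Kcnn1, a calcium-activated channel, by 0.06 ± 0.25. The tested Kcnj11 probe set exceeded the floor in only 1 of 4 wild-type, 1 of 2 heterozygous and 2 of 4 null hearts. Another Kcnj11 probe set never did.

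The other connexins were likewise few. Of 19 connexin and pannexin genes listed beside Gja1, 8 were on the arrays with 11 probe sets, 4 were tested and 0 were called in any genotype comparison. Gja5, connexin 40 of the atria and the His-Purkinje system, averaged 1983 ± 331 (SD, n = 3) in hearts of the wild type, against 1347 ± 442 (n = 3) in the null ones, whose mean lay just under the floor. Its null minus wild-type difference was -0.39 ± 0.28 (log2, SE). Gjc1, connexin 45 of the early heart and the nodes, averaged 2173 ± 303 (n = 5) and 1942 ± 172 (n = 4), a difference of -0.15 ± 0.16. Gja4, connexin 37 of vascular endothelium, differed by -0.19 ± 0.14 and Gjb1, connexin 32, by 0.12 ± 0.24. The tested Gja4 probe set exceeded the floor in only 2 of 3 wild-type, 1 of 4 heterozygous and 2 of 3 null hearts. Another Gja4 probe set never did, with means of 669 in wild-type and 967 in null hearts. The median over the 4 connexin genes was -0.17, with 1 higher and 3 lower, beside -0.0071 over all 2733 tested genes, of which 48.3% were higher.

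At the intercalated disc, where connexin 43 plaques lie, 14 of the 20 genes on the arrays were tested, and 0 were called. In null against wild-type hearts 6 were higher and 8 lower, with a median of -0.05. Cdh2, the N-cadherin of the disc, differed by -0.02 ± 0.15 (log2, SE) and Ctnna1, the alpha-catenin that ties it to actin, by -0.10 ± 0.13. The desmosomal cadherin Dsg2 differed by 0.19 ± 0.23. Null minus heterozygous was larger in size, at -0.36 ± 0.18 for Cdh2, -0.27 ± 0.16 for Ctnna1 and 0.48 ± 0.25 for Dsg2. Its adjusted p in limma was 0.790 for Cdh2 and Dsg2 and 0.834 for Ctnna1. Only 2 heterozygous hearts had a value for Cdh2 and Ctnna1, and 3 for Dsg2. Cav3, the muscle caveolin, had the lowest null minus wild-type value of the list at -0.45 ± 0.23, with an adjusted p of 0.9999 in limma.

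Among sodium, calcium and pacemaker channels and calcium-cycling genes, 6 of 11 genes on the arrays were tested, 0 were called, and null against wild-type hearts gave 4 higher and 2 lower with a median of 0.17. Atp2a2, which pumps calcium back into the sarcoplasmic reticulum, was 0.43 ± 0.13 (log2, SE) higher in null than in heterozygous hearts (adjusted p = 0.774 in limma). Casq2, calsequestrin, differed between null and wild type by -0.51 ± 0.31, with values in only 2 wild-type and 3 null hearts. Slc8a1, the sodium-calcium exchanger, gave 0.26 ± 0.15 by an A probe set and -0.14 ± 0.37 by a B probe set, so its 2 tested probe sets disagreed in sign.

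**Figure D5:**
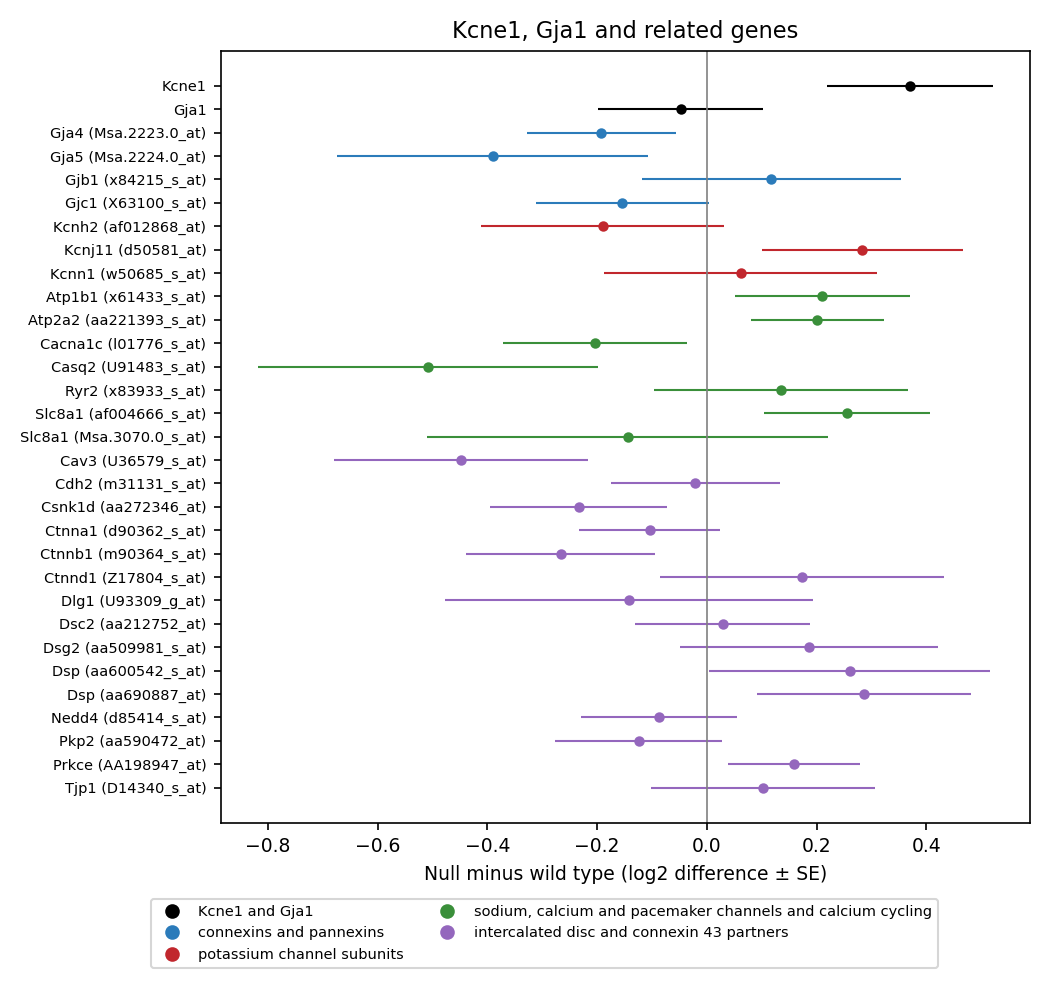
Null minus wild-type difference (log2 ± SE) of Kcne1 and Gja1 (black) and of every tested probe set of the connexin (blue), potassium channel (red), sodium, calcium and pacemaker channel (green) and intercalated disc (purple) lists, with the probe set in brackets. None of the 31 estimates passed the adjusted threshold. Kcne1, at 0.37, has the highest value and Casq2, at -0.51 from 2 wild-type and 3 null hearts, the lowest.

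Transcription factors of the conduction system and chambers gave 9 tested genes of 16 on the arrays, 4 higher and 5 lower in null than in wild-type hearts, and 0 were called. Hand2, a factor of the right ventricle, was 0.86 ± 0.27 (log2, SE) higher in null than in heterozygous hearts. Mef2c, a muscle factor, was 0.40 ± 0.16 higher, and both had an adjusted p of 0.774 in limma. Hand2 exceeded the floor in 2 of 4 heterozygous and 3 of 3 null hearts. The Mef2c probe set exceeded it in 0 of 4 heterozygous and 3 of 4 null hearts, so every heterozygous value was set to the floor. Another Mef2c probe set was too dim to test. Of the other genes reported to depend on Nkx2.5, 12 were tested. Gja5, Ryr2, Slc8a1, Hand1 and Mef2c among them were already counted in the lists above. In null against wild-type hearts 8 of the 12 were higher, 4 lower, and 0 were called. Their median was 0.15, beside -0.0071 over all 2733 tested genes, of which 48.3% were higher. Fhl2, a LIM-domain protein of cardiac muscle, was at -1.17 ± 0.31 in heterozygous and -0.69 ± 0.28 in null against wild-type hearts, with 2, 2 and 3 hearts in wild type, heterozygous and null. Cited1, a transcriptional co-activator, was at -0.56 ± 0.22 in null against wild-type hearts. The adjusted p was 0.981 for Fhl2 in heterozygous hearts and 0.9999 for both genes in null hearts.

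The named probe sets most like each gene over the hearts were ranked by Pearson's r of log2 values among 2346 probe sets that shared at least 10 hearts. For Kcne1 these were Tnni2, fast skeletal troponin I, with r = 0.788 over 10 hearts, Asph, an aspartyl hydroxylase whose locus also encodes junctin, with 0.766 over 12, Fdft1, squalene synthase, with 0.737 over 10, Wdr74 with 0.730 over 10 and Copz2, a coatomer subunit, with 0.722 over 13. Tnni2, also 1 of the 4 skeletal muscle markers, had means of 1450 ± 576 (SD, n = 4) in wild-type, 2634 ± 596 (n = 2) in heterozygous and 5321 ± 2673 (n = 4) in null hearts. A Ckm probe set, the skeletal muscle marker with a value in every heart, ranged from 2500 to 6426 in wild-type, from 1301 to 3889 in heterozygous and from 1164 to 4824 in null hearts, and the part of skeletal muscle RNA in the Kcne1 result was not tested. All 5 were on the A array, which shares the RNA but not the hybridisation with the B array.

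For Gja1 the most alike were Krtap5-4, a keratin-associated protein, with r = 0.890 over 12 hearts, Syt8, a synaptotagmin, with 0.853 over 10, Cdx2, a homeodomain factor of the gut, with 0.836 over 10, Srsf1, a splicing factor, with 0.834 over 10 and Cycs, cytochrome c, with 0.823 over 10. All 5 were B array probe sets and so came from the same hybridisations as Gja1. Without wild-type heart 7, the highest in Gja1, the 5 values of r ran from 0.668 to 0.823. These correlations are descriptions chosen as the highest of many.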

How the data were processed

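Per the file values, the authors deposited 1 intensity per probe set and array on a linear scale, already scaled so that the mean between the 2 and 98 percentiles was 1500 on each array without blank cells (7 A, 9 B). The software that made them is not given in the sources used here: the scaling and the subtracted background were read from the values. Negative values (24.4% to 29.5% of a B array) show that a background had been subtracted. Blank cells were treated as missing. The noise was the root mean square of the negative values (443.5 on A, 686.4 on B); intensities below 2 times the noise (887, 1373) were raised to that floor before log2. Probe sets above the floor on at least 4 arrays and with at least 2 values per genotype were tested, 4494 in all, 1723 on B; 55 control probe sets per array were left out. The test was limma 3.58.1, run in R 4.3.3 (lmFit and eBayes with a variance trend, all 13 hearts, 1 fit per array table, two-sided, Benjamini-Hochberg over both tables, threshold 0.05), tested first on simulated data. Symbols came from the platform annotation through RefSeq GRCm38.p6, which matched 5551 of 5560 gene IDs on A and 1993 of 2001 on B. An _s_at probe set can match more than 1 transcript. List members named had an unadjusted p under 0.05 in a genotype comparison or were among the 4 smallest p-values of their list; for the likeness ranking, both probe sets had to exceed the floor in at least 8 shared hearts. Members and lists were chosen with earlier results of these data known. The number of arrays limits the precision.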

Additional observations from a re-analysis of the deposited data

Results flagged for a closer look

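Gja1 in wild-type heart 7 was 10015.1 intensity units, the highest of the 5 wild-type hearts, and its gap to the next heart (7575.1) was 0.770 of the range of the group, above Dixon's limit for a group of 5. Of the 6 groups tested, 3 genotypes for each gene, this was the only 1 that stood out, and chance marks about 1 in 20 groups. Without that heart the null minus wild-type difference in Gja1 was 0.042 (log2).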

How the results depend on the processing

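Kcne1 null minus wild type (0.37) stayed positive in 28 of 29 alternatives and Kcne1 null minus heterozygous (0.43) likewise. The latter was 0.22 with quantile scaling, and in limma neither passed under any. Part of this count was fixed beforehand, because Kcne1 exceeded the floor in every heart and the estimate is a difference of genotype means. Lower floors, other filters, variance settings other than array weights, the permutation test and leaving out hearts of the uncompared genotype could not move an estimate. Scaling to the 2 cardiomyocyte markers turned the null minus wild-type and null minus heterozygous differences to -0.31 and -0.11. The exact permutation test, unadjusted, put 0.37 (p = 0.00794) and 0.43 (p = 0.0286) past 0.05. Leaving out each heart gave Kcne1 ranges of 0.35 to 0.40 for null minus wild type (unadjusted p 0.0244 to 0.0556), -0.12 to -0.02 for heterozygous minus wild type and 0.39 to 0.49 for null minus heterozygous. Kcne1 heterozygous minus wild type was 0.28 with quantile scaling and 0.0019 with array weights. For Gja1, null minus wild type was 0.057 with quantile scaling, 0.034 with cyclic loess, 0.016 without the mostly blank arrays and 0.013 with quantile scaling fitted on probe sets without blanks (added after the data were seen), and -0.73 by the cardiomyocyte markers; heterozygous minus wild type was 0.10 with quantile scaling; null minus heterozygous was -0.046 with quantile scaling and -0.49 by the cardiomyocyte markers. Leaving out each heart gave -0.12 to 0.06, -0.16 to -0.01 and -0.02 to 0.16 for the same 3 Gja1 comparisons; the values that turned sign were 0.042 (wild-type heart 7 left out) and 0.057 (null heart 3), and -0.016, -0.013 and -0.0032 without heterozygous heart N2, null heart 4 and null heart N3. Probe sets called in null against wild type numbered 2 with a floor of 1 times the noise, a robust noise, log2(intensity + noise) or at least 8 arrays above the floor; 0 with quantile scaling, no filter, no mostly blank arrays, no moderation (added after the data were seen) or the cardiomyocyte scale; 4 with 3 number series as a block and 3 with 2; and 0 to 3 when leaving out hearts. Null against heterozygous called 1 with the 3-series block. The cause was not tested. Without the filter, probe sets at the floor in every heart had no variance and got no test. No paired analysis was possible because the genotypes share no heart numbers.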
